A study of Mus musculus with 9 samples.

Results

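The chemokine ligands were taken as the protein-coding genes whose symbols begin with Ccl, Cxcl, Xcl or Cx3cl followed by a number. The expression table listed 54532 genes, and 44 of them met this rule under 38 distinct symbols, with 37 entries on chromosomes and 7 on unplaced scaffolds. Of the 44 entries, 16 reached 1 FPKM (fragments on a gene per kilobase of its length, scaled to the size of the library) in 3 or more samples and were tested, 13 had reads but did not reach that level, and 15 had no read in any sample.

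Chemokines are small secreted proteins that bind G protein-coupled receptors on other cells and steer their migration along gradients. DCs are both sources and targets of them: DCs that have been activated release inflammatory chemokines that recruit T cells, NK cells, monocytes and neutrophils, and switch on the receptor Ccr7, which leads them to the T cell zone. In the mouse genome many CC ligands lie in clusters on chromosome 11 and most CXC ligands in clusters on chromosome 5, and neighbours within a cluster often arose from each other by duplication.

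RNA from 3 groups of CD11c+ cells of mouse spleen was sequenced, with 3 samples per group. N-mDCs were the mature conventional DCs (cDCs) of healthy mice. T-DCs were CD11c+MHCIIlo cells, and T-mDCs the mature cDCs, of mice with T cell acute lymphoblastic leukemia (T-ALL). The T-ALL model was driven by the intracellular domain of Notch1, delivered by a retrovirus that also encodes GFP to c-kit+ bone marrow cells, and the leukemia was passed on to female C57BL/6J or C57B6.SJL recipients that were not irradiated, so that the host's own DCs remained. The normal mice carried no leukemia, and the labels list no drug or other agent for any group. T-DCs were enriched with CD11c beads and sorted by flow cytometry for low MHCII from cells negative for GFP and for lineage markers such as CD3 and NK1.1, so their immaturity was part of how they were chosen, and the labels do not say which T-DC and T-mDC samples came from the same mice or whether samples came from separate mice. The p-values therefore measure the spread between these samples, which may in part be technical.

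Reads on genes numbered 15360815 to 18440913 per sample, which puts the weight of 1 read per kilobase at 0.0517 to 0.0659 FPKM. The cDC marker Itgax, which encodes CD11c, was at 158 to 230 FPKM in N-mDCs and 158 to 167 FPKM in T-mDCs, and at 152, 90.4 and 43.0 FPKM in T-DC samples 1, 2 and 3. CD11c was also part of how the cells were chosen. The 11 listed cDC markers summed to 717, 348 and 193 FPKM in T-DC samples 1 to 3. Each sample of both mature groups had a sum of 751.5 FPKM or more. Apart from Sirpa and Clec10a, each of these markers was lower in every T-DC sample than in any mature sample. Flt3 was at 4.48 to 15.4 FPKM in T-DCs and at 44.39 FPKM or more in mature samples. Sirpa was highest in T-DC sample 1, at 404 FPKM, and Clec10a overlapped. Some samples stood apart. T-mDC samples 2 and 3 differed little from each other (chi-square per gene of 1.85, against 8.11 or more for the other pairs within a group), while T-DC sample 1 had a log2 correlation of 0.836 and 0.809 with T-DC samples 2 and 3. The 8 red cell genes summed to 57770 and 41680 FPKM in T-DC samples 2 and 3, to 601 FPKM in T-DC sample 1, to 99.4 to 5357 FPKM in N-mDCs and to 14.3 to 178 FPKM in T-mDCs. In these bulk samples, fewer cells of a type and less RNA per cell cannot be told apart.

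To show the control regions of the genes described, promoter windows of 300 bases (250 before the start site and 50 after it) were read from RefSeq for the GRCm38.p6 build. Of the 16 tested ligands, 11 had a window, and Ccl2, Ccl4, Ccl5, Ccl24 and Cxcl16 did not. The windows below, written 5′ to 3′ along the gene, belong to a pair of neutrophil-attracting ligands whose N-mDC samples lay above all leukemic samples (Cxcl1, Cxcl2), a pair of neighbouring Cxcr3 ligands (Cxcl9, Cxcl10) and a pair of neighbouring CC ligands with their highest mean level in T-DCs (Ccl6, Ccl9). Capitals mark matches to 4 motifs searched on both strands: the NF-κB consensus, the interferon response element core GAAANNGAAA, the AP-1 site TGANTCA and the TATA box TATAAA.
Cxcl1, chr5:90890995-90891294, plus strand: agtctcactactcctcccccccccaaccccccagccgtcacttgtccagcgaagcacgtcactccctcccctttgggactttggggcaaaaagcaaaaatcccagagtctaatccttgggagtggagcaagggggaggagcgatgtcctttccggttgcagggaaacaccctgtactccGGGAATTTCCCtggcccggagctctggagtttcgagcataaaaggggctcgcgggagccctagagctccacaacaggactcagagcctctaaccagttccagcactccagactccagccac
Cxcl2, chr5:90903649-90903948, plus strand: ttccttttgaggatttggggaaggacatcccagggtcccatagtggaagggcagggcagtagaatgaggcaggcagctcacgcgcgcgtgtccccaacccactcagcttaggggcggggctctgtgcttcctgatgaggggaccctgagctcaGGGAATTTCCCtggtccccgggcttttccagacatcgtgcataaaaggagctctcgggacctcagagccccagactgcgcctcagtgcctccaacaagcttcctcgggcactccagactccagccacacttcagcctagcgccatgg
Cxcl9, chr5:92328030-92328329, minus strand: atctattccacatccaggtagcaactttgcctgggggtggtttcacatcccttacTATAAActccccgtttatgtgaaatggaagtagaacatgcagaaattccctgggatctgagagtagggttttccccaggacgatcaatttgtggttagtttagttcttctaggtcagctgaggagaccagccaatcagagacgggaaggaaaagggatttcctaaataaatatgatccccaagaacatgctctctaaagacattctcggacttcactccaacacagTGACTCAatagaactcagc
Cxcl10, chr5:92348840-92349139, minus strand: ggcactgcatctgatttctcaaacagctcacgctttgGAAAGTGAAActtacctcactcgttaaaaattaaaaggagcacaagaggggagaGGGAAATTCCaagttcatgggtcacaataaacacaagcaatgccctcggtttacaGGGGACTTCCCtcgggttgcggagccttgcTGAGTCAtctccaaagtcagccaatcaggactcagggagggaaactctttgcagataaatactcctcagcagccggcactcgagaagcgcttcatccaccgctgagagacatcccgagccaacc
Ccl6, chr11:83593038-83593337, minus strand: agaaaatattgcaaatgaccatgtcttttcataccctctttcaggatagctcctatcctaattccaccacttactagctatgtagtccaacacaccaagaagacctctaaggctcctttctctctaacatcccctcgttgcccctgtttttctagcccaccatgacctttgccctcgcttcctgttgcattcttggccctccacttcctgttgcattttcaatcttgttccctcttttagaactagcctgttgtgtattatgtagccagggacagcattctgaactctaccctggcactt
Ccl9, chr11:83578587-83578886, minus strand: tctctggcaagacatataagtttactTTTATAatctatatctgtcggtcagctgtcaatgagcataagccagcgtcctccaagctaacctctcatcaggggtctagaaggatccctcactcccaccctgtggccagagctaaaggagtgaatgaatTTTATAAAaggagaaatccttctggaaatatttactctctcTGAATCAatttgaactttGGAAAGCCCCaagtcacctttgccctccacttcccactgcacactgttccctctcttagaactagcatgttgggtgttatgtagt

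The NF-κB consensus, the site of a factor that switches on many inflammatory genes, was matched in 8.46% of 32851 RefSeq promoter windows and in 4 of the 11 ligand windows (Cxcl1, Cxcl2, Cxcl10 and Ccl9). Cxcl1 and Cxcl2 held the same run of 11 bases, GGGAATTTCCC, which matches on both strands, at positions −71 to −61 from the start site of Cxcl1 and −97 to −87 from that of Cxcl2. The interferon response element core was matched in 3.44% of all windows and in 1 ligand window, that of Cxcl10, where it lay at positions −213 to −204. The AP-1 site was matched in 7.81% of all windows and in the windows of Cxcl9, Cxcl10 and Ccl9. The TATA box was matched in 13.62% of all windows and in those of Cxcl9, Cxcl13, Ccl12 and Ccl9. In Cxcl10, matches to the NF-κB consensus on the plus and minus strands overlapped one another, and in Ccl9 matches to the TATA box on both strands did. No match to these motifs lay in the windows of Ccl6, Ccl3, Ccl22 or Xcl1. A match is a string of letters and not a measured binding site.

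A few genes made up most of the ligand transcripts. Summed over the 44 entries, ligand FPKM was 1049 ± 136 (SD, n = 3) in N-mDCs, 458 ± 183 in T-DCs and 1286 ± 153 in T-mDCs. The highest T-DC sample, at 613 FPKM, lay below the lowest N-mDC sample, at 952 FPKM, and the lowest T-mDC sample, at 1118 FPKM. Ccl3, Ccl4 and Ccl5 together held 69.1% ± 2.86 of this sum in N-mDCs and 83.0% ± 2.29 in T-mDCs, but 45.5% ± 11.1 in T-DCs. Ccl6 and Ccl9 held 46.6% ± 14.3 of the sum in T-DCs, 8.43% ± 2.71 in N-mDCs and 4.76% ± 4.06 in T-mDCs. Ccl5 took 22.2 to 47.6% of the sum in the samples of both mature groups and 0.940 to 3.16% in T-DCs. These sums were not tested.

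**Figure D1:**
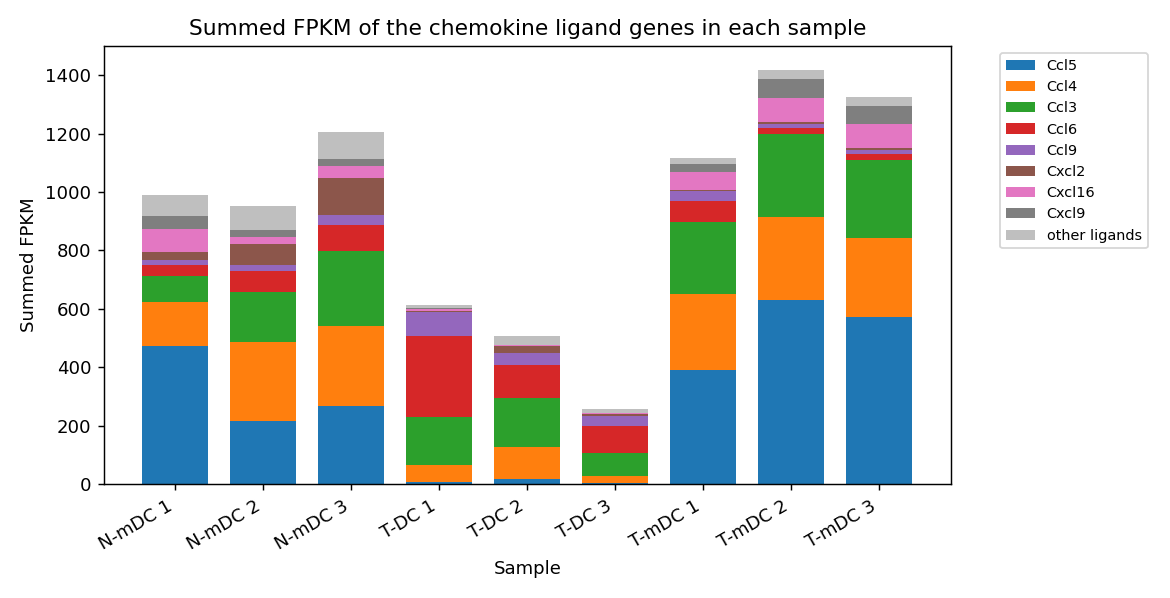
Summed FPKM of the chemokine ligand genes in each of the 9 samples, with 1 stacked bar per sample and 1 colour per gene (bars start at 0). The Ccl5 segment all but vanishes in the 3 T-DC samples, whose sums run from 256 to 613 FPKM, and Ccl6 and Ccl9 make up 30.8 to 58.7% of their height.

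Tested with limma on log2(FPKM + 1) over all 12746 genes that passed the filter, with Benjamini-Hochberg adjustment over all of them, 9 of the 16 ligands fell from N-mDCs to T-DCs (all tested genes: 10.3% lower) and 0 were higher (all tested genes: 6.10%). Without adjustment, limma put 10 ligands lower and 1 higher at p under 0.05 (all tested genes: 35.1% in either direction), and limma voom on recovered reads also called 9 lower and 0 higher, with Cxcl10 in place of Cxcl1. Against T-mDCs, 5 ligands were lower in T-DCs (all tested genes: 8.79%) and 1 was higher (all tested genes: 5.44%), with 7 lower and 2 higher at an unadjusted p under 0.05 (all tested genes: 30.1% in either direction). Between T-mDCs and N-mDCs, 2 ligands were lower in T-mDCs (all tested genes: 1.52%) and 0 were higher (all tested genes: 0.690%), with 5 lower and 0 higher at an unadjusted limma p under 0.05 (all tested genes: 16.7% in either direction) and 2 lower and 0 higher by limma voom. The F-test over the 3 groups called 9 ligands (all tested genes: 18.0%). The median log2 difference of the 16 ligands was −1.62 for T-DCs and −0.64 for T-mDCs, each against N-mDCs, and −0.29 between T-DCs and T-mDCs, where the medians of all tested genes were 0.05, 0.03 and 0.07. The count of 9 fell to 5 without N-mDC sample 2 and also without N-mDC sample 3. Over all genes, calls in either direction then fell from 2096 to 1488 and 991. The count of 5 against T-mDCs fell to 3 without T-mDC sample 2 or 3 or with these near-identical samples averaged into 1. Calls over all genes then fell from 1813 to 487, 493 and 540. The count of 2 between T-mDCs and N-mDCs fell to 0 when N-mDC 2, N-mDC 3, T-mDC 2 or T-mDC 3 was left out. All-gene calls of that comparison fell from 282 to 30, 42, 13 and 11. Because 1 was added to each FPKM, log2 differences of genes with low FPKM are understated.

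**Figure D2:**
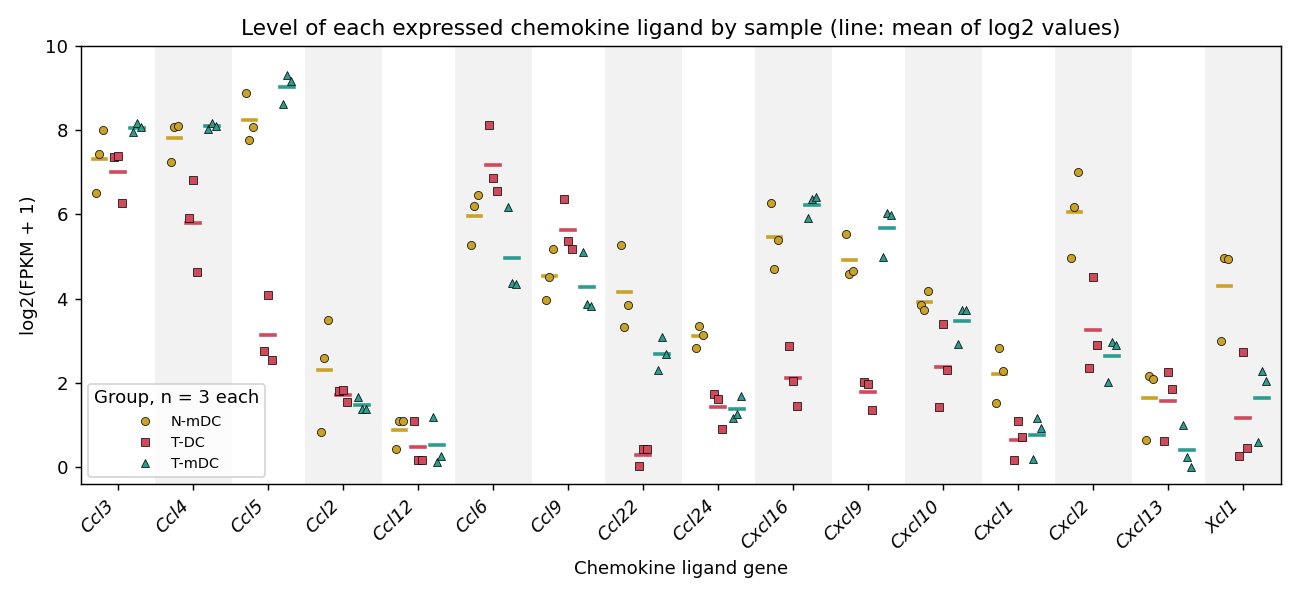
Level of each of the 16 tested ligands, as log2(FPKM + 1) on the vertical axis, in the 3 samples of each group, with a line at the mean of the log2 values. T-DC points (squares) lie below the N-mDC points (circles) for 10 ligands, and above them for Ccl6.

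The inflammatory CC ligands Ccl3, Ccl4 and Ccl5 had the highest mean levels in both mature groups, while in T-DCs the order was Ccl6 (162 FPKM), Ccl3 (135 FPKM), Ccl4 (65.0 FPKM) and Ccl9 (52.4 FPKM), with Ccl5 at 8.87 FPKM. Ccl3, Ccl4 and Ccl5 recruit T cells, NK cells and monocytes. Ccl5 (chr11:83525778-83530518, minus strand; coordinates here and below are those of the deposited table, build mm10) was at 471, 217 and 268 FPKM in N-mDC samples 1 to 3, at 5.76, 16.0 and 4.87 FPKM in T-DCs and at 391, 629 and 571 FPKM in T-mDCs. The T-DC samples lay far below every sample of both mature groups. The log2 difference was −5.11 ± 0.45 (SE) against N-mDCs (limma adjusted p = 0.000629) and −5.89 ± 0.45 against T-mDCs (limma adjusted p = 0.000955). T-mDCs and N-mDCs overlapped in Ccl5, with a log2 difference of 0.78 ± 0.45 (95% interval −0.23 to 1.80, limma adjusted p = 0.417).

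Ccl4 (chr11:83662584-83664683, plus strand) was at 152, 269 and 274 FPKM in N-mDCs, at 59.6, 112 and 23.8 FPKM in T-DCs and at 260, 285 and 271 FPKM in T-mDCs. The T-DC samples lay below both mature groups without overlap, and the 3 T-mDC samples lay close together. The log2 difference of T-DCs was −2.02 ± 0.49 against N-mDCs (limma adjusted p = 0.0273) and −2.30 ± 0.49 against T-mDCs (limma adjusted p = 0.0188). The difference from N-mDCs was not called without N-mDC sample 2 or 3 (limma adjusted p = 0.0788 and 0.0903), nor that from T-mDCs without T-mDC sample 2 or 3 (limma adjusted p = 0.083 and 0.0793).

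Ccl3 (chr11:83647844-83649355, minus strand) lies 13228 bases from Ccl4 and was at 90.3, 171 and 257 FPKM in N-mDCs, at 164, 166 and 76.3 FPKM in T-DCs and at 248, 285 and 268 FPKM in T-mDCs. T-DCs overlapped N-mDCs, with a log2 difference of −0.31 ± 0.42 (95% interval −1.26 to 0.64, limma adjusted p = 0.628). They lay below all T-mDC samples, but the log2 difference of −1.06 ± 0.42 missed the threshold (limma adjusted p = 0.129). The ratio of Ccl3 to Ccl4 FPKM within a sample was 0.594, 0.635 and 0.939 in N-mDCs, 2.75, 1.49 and 3.20 in T-DCs and 0.951, 0.999 and 0.990 in T-mDCs. This ratio was above 1 in the T-DC samples and below 1 in the other 6 samples, and each T-DC comparison reached the smallest p that 3 against 3 samples allow (exact two-sided permutation test, p = 0.1).

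The monocyte-attracting Ccr2 ligands were low. Ccl2 (chr11:82035571-82037453, plus strand) was at 0.787, 5.02 and 10.2 FPKM in N-mDCs, at 2.50, 2.55 and 1.91 FPKM in T-DCs and at 2.19, 1.59 and 1.62 FPKM in T-mDCs. N-mDC samples spread over more than the whole range of the other groups, and no comparison passed the threshold (limma adjusted p = 0.485 for T-DCs and 0.492 for T-mDCs against N-mDCs, and 0.792 between the leukemic groups). Without N-mDC sample 1, the lowest, T-DCs were called lower than N-mDCs (log2 difference −1.31, limma adjusted p = 0.0372). Ccl12 (chr11:82101845-82103400, plus strand), a further Ccr2 ligand of mice, was at 0.357, 1.16 and 1.13 FPKM in N-mDCs, at 1.14, 0.120 and 0.123 FPKM in T-DCs and at 1.28, 0.0964 and 0.203 FPKM in T-mDCs. In both leukemic groups sample 1 was the highest, the groups overlapped, and no comparison of Ccl12 passed the threshold (limma adjusted p = 0.469, 0.938 and 0.679). Ccl7 and Ccl8, of the same cluster, did not pass the filter on low values: Ccl7 reached 2.06 FPKM and Ccl8 1.55 FPKM at most.

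Of the 16 tested ligands, Ccl6 and Ccl9 had their highest mean level in T-DCs. These CC chemokines of rodents bind Ccr1 and are made by macrophages and other myeloid cells. Ccl6 (chr11:83587882-83593087, minus strand) was at 37.8, 72.3 and 86.6 FPKM in N-mDCs, at 278, 115 and 93.6 FPKM in T-DCs and at 71.9, 19.9 and 19.3 FPKM in T-mDCs. T-DC samples lay above every sample of the other groups, and sample 1 was the highest in both leukemic groups. The difference from T-mDCs was 2.21 ± 0.60 on the log2 scale (limma adjusted p = 0.0410). The difference from N-mDCs, 1.21 ± 0.60, missed the threshold (limma adjusted p = 0.180). The call against T-mDCs was lost when any of 7 samples was left out (N-mDC 1, 2 or 3, T-DC 2 or 3, T-mDC 2 or 3), with adjusted p-values from 0.0511 to 0.163, and with the T-mDC pair averaged (limma adjusted p = 0.159).

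Ccl9 (chr11:83572919-83578636, minus strand), 9245 bases from Ccl6, was at 14.7, 21.7 and 35.1 FPKM in N-mDCs, at 81.7, 40.4 and 35.0 FPKM in T-DCs and at 33.7, 13.7 and 13.1 FPKM in T-mDCs. The T-DC samples lay above the T-mDC samples, and T-DC sample 3 just below the highest N-mDC sample. Neither difference passed the threshold, at 1.09 ± 0.47 against N-mDCs (limma adjusted p = 0.137) and 1.36 ± 0.47 against T-mDCs (limma adjusted p = 0.0874), although without T-mDC sample 1 the latter did (log2 difference 1.79, limma adjusted p = 0.0344). The ratio of Ccl9 to Ccl6 was 0.294 to 0.375 in T-DCs and 0.300 to 0.405 in N-mDCs, which overlapped, and 0.469 to 0.691 in T-mDCs. The 11 listed monocyte and macrophage markers summed to 3552, 1395 and 886 FPKM in T-DC samples 1 to 3, to 1747, 3636 and 2188 FPKM in N-mDCs and to 1562, 586 and 581 FPKM in T-mDCs, so that within each leukemic group this sum and both ligands were highest in sample 1, whereas within N-mDCs the sum was highest in sample 2 and both ligands in sample 3. Their part in the level of Ccl6 and Ccl9 was not tested.

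**Figure D3:**
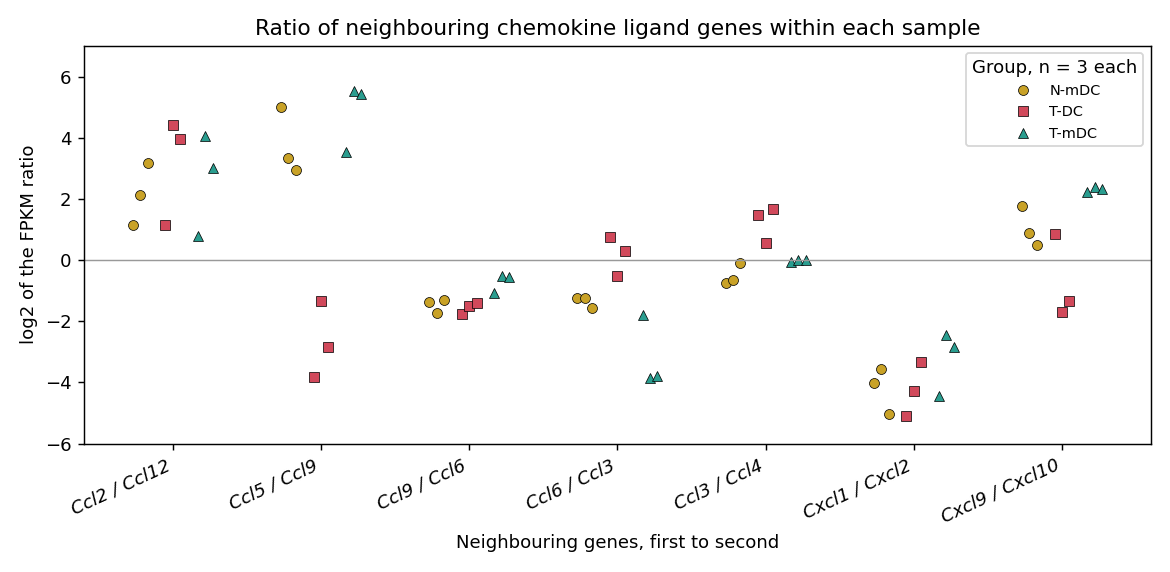
The log2 ratio of FPKM between neighbouring ligand genes (less than 100 kb apart) within each sample, for 7 pairs, with 3 points per group. T-DC points stand apart from both mature groups for Ccl5 to Ccl9, Ccl6 to Ccl3 and Ccl3 to Ccl4.

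Levels of neighbouring ligands were also set against each other within a sample, which removes the scaling of the sample. On chromosome 11, Ccl5 is followed by Ccl9, Ccl6, Ccl3 and Ccl4, each less than 100 kb from the next. The ratio of Ccl5 to Ccl9 was 7.62 to 32.0 in N-mDCs and 11.6 to 45.8 in T-mDCs, but 0.0704, 0.396 and 0.139 in T-DCs, so that in T-DCs Ccl9 exceeded Ccl5 in each sample. The ratio of Ccl6 to Ccl3 was 0.337 to 0.423 in N-mDCs, 0.0698 to 0.290 in T-mDCs and 1.69, 0.695 and 1.23 in T-DCs. For 3 of the 7 pairs T-DCs stood apart from N-mDCs, for 5 from T-mDCs, and for 4 T-mDCs stood apart from N-mDCs. No share was computed over other pairs of neighbouring genes, so these counts cannot be called high or low. With 21 exact permutation p-values in this family and none able to go below 0.1, none passes an adjusted threshold.

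Ccl22 was the ligand of Ccr4, the receptor of regulatory and Th2 cells, that passed the filter. Ccl22 (chr8:94745590-94751699, plus strand) was at 37.6, 9.003 and 13.6 FPKM in N-mDCs, at 0.0240, 0.361 and 0.340 FPKM in T-DCs and at 3.96, 7.50 and 5.47 FPKM in T-mDCs. The 3 groups did not overlap, with N-mDCs the highest and T-DCs the lowest, and T-DC sample 1 held 1 read on the gene. The log2 difference was −3.85 ± 0.45 against N-mDCs (limma adjusted p = 0.00164) and −2.40 ± 0.45 against T-mDCs (limma adjusted p = 0.0112). The latter was not called without T-mDC sample 2 or 3 (limma adjusted p = 0.0613 and 0.0545). T-mDCs against N-mDCs, at −1.45 ± 0.45, missed the threshold (limma adjusted p = 0.151). Ccl17, the other Ccr4 ligand, missed the filter on low values. It had 24 reads over the N-mDC samples (16, 6 and 2), 23 over the T-mDC samples (8, 10 and 5) and 0 in each T-DC sample. With a floor of 3 reads over the T-DC group, its level in pooled reads was at least 7.79-fold higher in N-mDCs and at least 6.58-fold higher in T-mDCs. Pooling ignores the spread between samples: N-mDC sample 3 was at 0.214 FPKM, against 0.120 FPKM for the floor. The 7 listed markers of mature DCs, Ccr7 among them, summed to 45.5 to 110 FPKM in T-DCs, 1457 to 2173 FPKM in T-mDCs and 1214 to 2629 FPKM in N-mDCs.

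Ccl24 (chr5:135569937-135573049, minus strand), which attracts eosinophils through Ccr3, was at 6.12, 9.16 and 7.87 FPKM in N-mDCs, at 2.33, 2.09 and 0.865 FPKM in T-DCs and at 1.27, 1.40 and 2.23 FPKM in T-mDCs. Every N-mDC sample exceeded every sample of the leukemic groups, which overlapped with each other. The log2 difference from N-mDCs was −1.69 ± 0.27 for T-DCs (limma adjusted p = 0.00526) and −1.73 ± 0.27 for T-mDCs (limma adjusted p = 0.0189), while T-DCs against T-mDCs gave 0.04 ± 0.27 (95% interval −0.56 to 0.65, limma adjusted p = 0.928). The T-mDC call was lost without N-mDC sample 2 or 3 or T-mDC sample 2 or 3 (limma adjusted p from 0.0827 to 0.115).

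Cxcl1 and Cxcl2, neutrophil-attracting ligands that signal through Cxcr2, lay lower in every sample of both leukemic groups than in any N-mDC sample, and the test called Cxcl2 in both comparisons and Cxcl1 in T-DCs. Cxcl2 (chr5:90903871-90905938, plus strand) was at 30.2, 71.1 and 128 FPKM in N-mDCs, at 4.10, 21.9 and 6.43 FPKM in T-DCs and at 3.07, 6.86 and 6.52 FPKM in T-mDCs. No sample of the leukemic groups reached the lowest N-mDC sample. The log2 difference was −2.80 ± 0.65 for T-DCs (limma adjusted p = 0.0227) and −3.41 ± 0.65 for T-mDCs (limma adjusted p = 0.0375), and T-DCs and T-mDCs overlapped (0.62 ± 0.65, limma adjusted p = 0.553). The T-DC call was lost with N-mDC 2, N-mDC 3 or T-DC 3 left out (limma adjusted p from 0.0657 to 0.0778). The T-mDC call was lost without N-mDC sample 2 or 3 or any T-mDC sample (limma adjusted p from 0.0768 to 0.164).

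Cxcl1 (chr5:90891241-90893115, plus strand), 10755 bases from Cxcl2, was at 1.88, 6.06 and 3.91 FPKM in N-mDCs, at 0.119, 1.14 and 0.632 FPKM in T-DCs and at 0.141, 1.24 and 0.899 FPKM in T-mDCs. Sample 1 was the lowest in each group, and the N-mDC samples did not overlap with the others. T-DCs against N-mDCs gave a log2 difference of −1.56 ± 0.40 (limma adjusted p = 0.0317), and T-mDCs against N-mDCs, at −1.45 ± 0.40, missed the threshold (limma adjusted p = 0.112). The T-DC difference was not called with N-mDC 2, N-mDC 3, T-DC 3 or T-mDC 3 left out (limma adjusted p from 0.0535 to 0.0938) or by limma voom (adjusted p = 0.0561). The 6 listed neutrophil markers, S100a8 and S100a9 the most abundant of them, summed to 42.1, 2797 and 938 FPKM in T-DC samples 1 to 3, to 17.2 to 21.0 FPKM in T-mDCs and to 81.2, 367 and 692 FPKM in N-mDC samples 1 to 3. The neutrophil-defining Ly6g was at 0 to 5.14 FPKM in T-DCs, 0 to 0.0549 FPKM in T-mDCs and 0 to 1.70 FPKM in N-mDCs. Within N-mDCs the marker sum and Cxcl2 were both lowest in sample 1 and highest in sample 3. Within T-DCs both were lowest in sample 1 and highest in sample 2. Within T-mDCs the marker sum was highest and Cxcl2 lowest in sample 1. T-DC sample 2, with the highest marker sum of all, held 21.9 FPKM of Cxcl2. The part of neutrophil RNA in these results was not tested.

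The interferon-induced Cxcr3 ligands Cxcl9 and Cxcl10, which recruit activated T cells and NK cells, did not both pass the test: Cxcl9 was lower in T-DCs than in both mature groups, and Cxcl10 was not called. Cxcl9 (chr5:92321347-92328079, minus strand) was at 45.3, 22.9 and 24.3 FPKM in N-mDCs, at 3.07, 2.95 and 1.55 FPKM in T-DCs and at 30.7, 64.8 and 62.4 FPKM in T-mDCs. T-DC samples lay far below all others, and the mature groups overlapped. The log2 difference was −3.14 ± 0.37 against N-mDCs (limma adjusted p = 0.00165) and −3.88 ± 0.37 against T-mDCs (limma adjusted p = 0.00140). T-mDCs against N-mDCs gave 0.74 ± 0.37 (95% interval −0.10 to 1.59, limma adjusted p = 0.353).

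Cxcl10 (chr5:92346638-92348889, minus strand), 18558 bases from Cxcl9, was at 13.5, 12.4 and 17.2 FPKM in N-mDCs, at 1.71, 9.57 and 3.92 FPKM in T-DCs and at 6.54, 12.4 and 12.4 FPKM in T-mDCs. T-DC samples lay below the N-mDC samples, but T-DC sample 2 lay within the range of T-mDCs. The log2 difference was −1.55 ± 0.46 from N-mDCs and −1.09 ± 0.46 from T-mDCs, and neither passed the threshold (limma adjusted p = 0.0517 and 0.151). Without T-DC sample 2 both passed (limma adjusted p = 0.015 and 0.0409), and the difference from N-mDCs passed in 7 of 23 alternatives, with limma adjusted p from 0.015 to 0.145 over them all. The ratio of Cxcl9 to Cxcl10 was 1.80, 0.309 and 0.396 in T-DCs, 4.69, 5.24 and 5.05 in T-mDCs and 3.37, 1.85 and 1.42 in N-mDCs. T-DCs overlapped N-mDCs in this ratio and lay below T-mDCs (exact two-sided permutation test, p = 0.2 and p = 0.1). Cxcl11, which is listed as a polymorphic pseudogene and so fell outside the rule, reached 0.258 FPKM at most.

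Cxcl16, a ligand of Cxcr6 made as a transmembrane protein that also takes up oxidized lipoproteins, was lower in T-DCs than in both mature groups. Cxcl16 (chr11:70453983-70459984, minus strand) was at 76.8, 24.96 and 41.1 FPKM in N-mDCs, at 6.36, 3.14 and 1.74 FPKM in T-DCs and at 59.7, 81.3 and 83.7 FPKM in T-mDCs. No T-DC sample overlapped with either mature group, and those overlapped with each other. The log2 difference was −3.33 ± 0.45 against N-mDCs (limma adjusted p = 0.00278) and −4.10 ± 0.45 against T-mDCs (limma adjusted p = 0.00190). Cx3cl1, the other transmembrane chemokine, reached 0.684 FPKM at most.

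Xcl1, the ligand of the cDC1 receptor Xcr1 and best known as a product of NK cells and CD8+ T cells, was present in N-mDCs and low in most leukemic samples. Xcl1 (chr1:164931644-164935527, minus strand) was at 6.97, 30.3 and 29.8 FPKM in N-mDCs, at 0.213, 5.68 and 0.378 FPKM in T-DCs and at 0.506, 3.86 and 3.12 FPKM in T-mDCs. N-mDC samples lay above all others, and sample 1 was the lowest of each group. The log2 difference of T-DCs from N-mDCs was −3.14 ± 0.80 (limma adjusted p = 0.0311), a call lost with N-mDC 2, N-mDC 3, T-DC 3 or T-mDC 3 left out (limma adjusted p from 0.0506 to 0.102). T-mDCs against N-mDCs, at −2.66 ± 0.80, missed the threshold (limma adjusted p = 0.137), and T-DCs overlapped T-mDCs (−0.48 ± 0.80, limma adjusted p = 0.716). The 7 listed NK cell markers summed to 4.66 to 21.9 FPKM in T-DCs, 27.8 to 44.8 FPKM in T-mDCs and 137 to 189 FPKM in N-mDCs. Klrd1 alone held 21.7 to 31.6 FPKM of the T-mDC sum. In T-DC sample 2, Gzma, Prf1, Ncr1 and Eomes were at 9.94, 2.22, 0.838 and 0.885 FPKM. No T-mDC sample exceeded 1.08, 0.39, 0.605 and 0.275 FPKM of these genes. T-DC samples 1 and 3 did not exceed the highest T-mDC sample in any of them. The sum and these genes thus ranked T-DC sample 2 and T-mDCs differently. Klrb1c, which encodes NK1.1, was at 0.0189 to 0.392 FPKM in T-DCs, 0.0179 to 0.140 FPKM in T-mDCs and 2.29 to 4.99 FPKM in N-mDCs, and cells with NK1.1 on their surface were gated out of T-DCs. The 6 listed T-lineage markers summed to 20.9, 48.7 and 44.7 FPKM in N-mDC samples 1 to 3, 2.24, 36.3 and 7.78 FPKM in T-DCs and 8.03, 5.94 and 4.80 FPKM in T-mDCs, so that in N-mDCs and T-DCs, but not in T-mDCs, their sum was highest in the sample with the most Xcl1. Their part in the level of Xcl1 was not tested.

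Of the homeostatic ligands, which position lymphocytes and DCs in resting tissue, Cxcl13 passed the filter. Cxcl13 (chr5:95956951-95961068, plus strand), which draws Cxcr5+ B cells to follicles, was at 0.556, 3.51 and 3.30 FPKM in N-mDCs, at 0.534, 3.76 and 2.63 FPKM in T-DCs and at 1.013, 0.180 and 0 FPKM in T-mDCs. T-DCs and N-mDCs had almost the same range, and sample 1 was the lowest in both. No comparison passed the threshold (limma adjusted p = 0.949 for T-DCs and 0.299 for T-mDCs against N-mDCs, and 0.188 between the leukemic groups). Without T-DC sample 1, T-DCs were called higher than T-mDCs (log2 difference 1.64, limma adjusted p = 0.0344). Calls over all genes in that comparison then rose from 1813 to 4420.

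**Figure D4:**
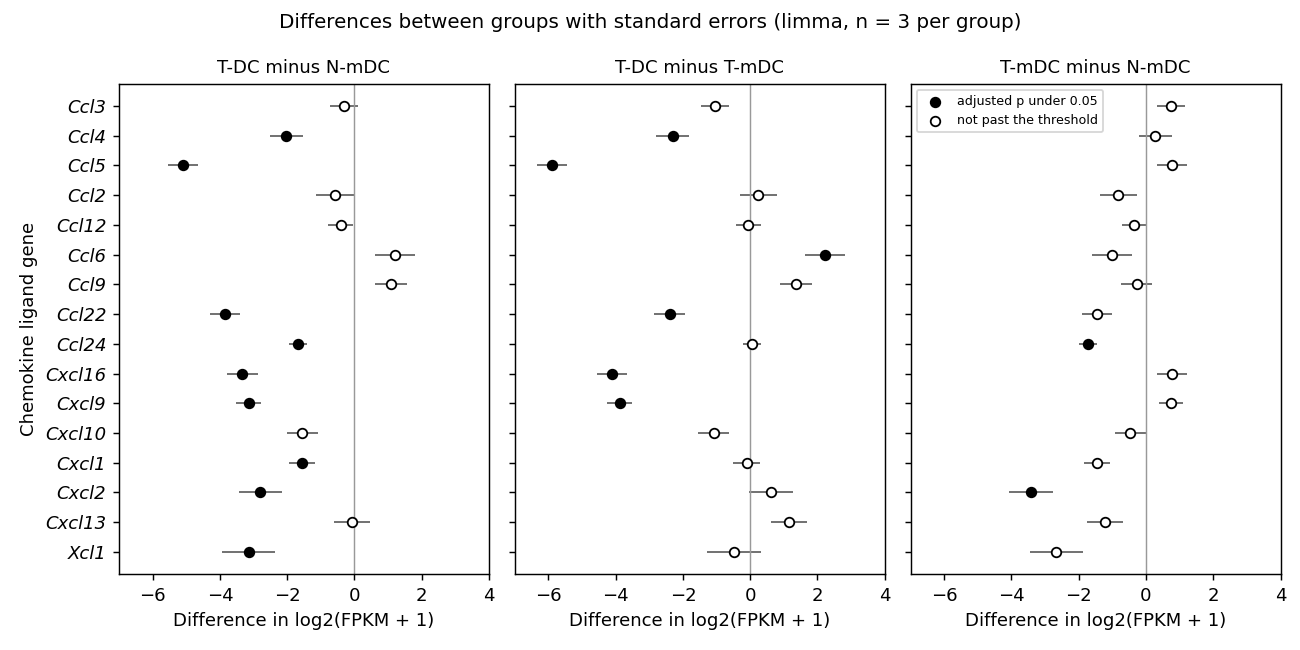
Difference in log2(FPKM + 1) between groups for the 16 tested ligands, with standard errors (limma, n = 3 per group), in 3 panels with 1 comparison each. Filled points passed an adjusted p of 0.05: 9 in the first panel, 6 in the second, among them Ccl6 to the right of 0, and 2 in the third.

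T-DC samples lay below all N-mDC samples for 10 ligands (all tested genes: 16.4%) and above them for 1, Ccl6 (all tested genes: 16.0%). Against T-mDCs the counts were 6 below (all tested genes: 18.1%) and 2 above, Ccl6 and Ccl9 (all tested genes: 16.8%). T-mDC samples lay below all N-mDC samples for 6 ligands (all tested genes: 15.7%) and above them for 0 (all tested genes: 19.3%). With the red cell genes as a covariate, limma called 0 of the 12746 genes between T-DCs and T-mDCs (1686 at an unadjusted p under 0.05), so the 6 ligand calls of that comparison were lost too. Their log2 differences were then −5.77 for Ccl5, −2.99 for Cxcl9, −2.49 for Cxcl16, −2.50 for Ccl4, −1.79 for Ccl22 and 2.47 for Ccl6. Against N-mDCs, Ccl24, Ccl4 and Xcl1 lost their calls under this covariate (limma adjusted p = 0.0524, 0.114 and 0.062) and the other 6 did not. The covariate was highest in T-DC samples 2 and 3 and lowest in T-mDC samples 2 and 3, so it is confounded with the groups and its part cannot be told apart from theirs. In T-DC sample 1 the red cell genes summed to 601 FPKM, the lowest of T-DCs. That sum lay above every T-mDC sample (14.3 to 178 FPKM) and within the range of N-mDCs (99.4 to 5357 FPKM). The ligands called lower than T-mDCs (Ccl5, Cxcl9, Cxcl16, Ccl4 and Ccl22) were below every sample of both mature groups in this sample too. The part of red cell RNA in these levels was not tested.

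The 13 ligands with reads below the filter were Ccl1, Ccl7, Ccl8, Ccl17, Ccl25, Ccl27a (listed at 2 places), Ccl28, Cx3cl1, Cxcl3, Cxcl5, Cxcl12 and Cxcl14. Besides Ccl7, Ccl8, Ccl17 and Cx3cl1, the highest of them were Ccl27a, at up to 0.942 FPKM, and Ccl25, at up to 0.540 FPKM. Cxcl12, the ligand that retains hematopoietic cells in the bone marrow, was at up to 0.175 FPKM. The chromosomal ligands with 0 reads in every sample were Ccl11, Ccl19, Ccl20, Ccl21a, Ccl21b, Ccl26, Ccl27b, Cxcl15 and Cxcl17, and 6 further entries with 0 reads lay on scaffolds. Ccl19, Ccl21 and Ccl27 have near-identical copies in the mouse genome, and reads shared between copies could have been dropped in counting, so that values of 0 for these genes are uncertain. By position, 8 of the 12 entries on chromosome 11 and 6 of the 10 on chromosome 5 were tested, against 0 of 5 on chromosome 4. Pf4 and Ppbp, platelet CXC chemokines whose symbols the rule does not match, were at 0.0887 to 9.48 FPKM and 0.0489 to 6.20 FPKM, with sample 1 the lowest in each group, and limma called neither in any comparison (limma adjusted p = 0.361 or more).

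The receptors of these ligands were read from the same fit, from a list of 22 genes of which 15 were tested. Of these, 10 fell from N-mDCs to T-DCs (among them Ackr2, Ccr2, Ccr3, Ccr6, Ccr7, Ccr9, Cxcr3, Cxcr5 and Xcr1), a share of 66.7% where 10.3% of all tested genes were lower. Ccr7, the receptor for Ccl19 and Ccl21 that guides mature DCs, was at 867, 295 and 576 FPKM in N-mDCs, at 9.54, 24.6 and 1.60 FPKM in T-DCs and at 539, 899 and 923 FPKM in T-mDCs. Its T-DC samples lay far below all others, with a log2 difference of −5.90 ± 0.76 against N-mDCs (limma adjusted p = 0.00220) and −6.43 ± 0.76 against T-mDCs (limma adjusted p = 0.00197). Cxcr5, the receptor for Cxcl13, gave −3.04 ± 0.20 and −2.59 ± 0.20 in these comparisons (limma adjusted p = 0.000333 and 0.000955), and Ccr6, the receptor for Ccl20, gave −2.63 ± 0.34 and −2.66 ± 0.34 (limma adjusted p = 0.00228 and 0.00256). These 3 receptors were called against N-mDCs in 23 of 23 alternatives, whereas Ccr3 was in 17, Xcr1 in 14, Ccr2 in 11 and Cxcr3 in 9 of 23, Ackr2 in 18 and Ccr9 in 8 of 22. Each of these 6 calls was lost when 1 or another N-mDC sample was left out.

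Against T-mDCs, receptors lower in T-DCs included Ccr6, Ccr7, Cxcr3, Cxcr5 and Xcr1 (all tested genes: 8.79% lower), and Cx3cr1 was higher (all tested genes: 5.44%). Xcr1, the receptor for Xcl1 and a marker of cDC1s, was at 11.4 to 18.9 FPKM in N-mDCs, at 6.81, 1.96 and 1.02 FPKM in T-DCs and at 25.4, 63.8 and 63.2 FPKM in T-mDCs. T-DCs did not overlap with either mature group (log2 differences −2.07 ± 0.53 and −3.73 ± 0.53, limma adjusted p = 0.0319 and 0.00378). Cx3cr1, the receptor for Cx3cl1 that monocytes and macrophages carry, was at 8.72, 12.6 and 16.5 FPKM in N-mDCs, at 92.2, 50.1 and 34.4 FPKM in T-DCs and at 27.1, 4.49 and 4.19 FPKM in T-mDCs, with every T-DC sample above all others. It was called against T-mDCs (2.57 ± 0.65, limma adjusted p = 0.0326) and not against N-mDCs (2.06 ± 0.65, limma adjusted p = 0.0603), and the former was lost when any of 6 samples was left out (N-mDC 2 or 3, T-DC 2 or 3, T-mDC 2 or 3). In T-mDCs against N-mDCs, 2 of the 15 tested receptors were lower (all tested genes: 1.52%) and 0 were higher (all tested genes: 0.690%). The 2 lower receptors were Ccr3, the receptor for Ccl24 (−2.71 ± 0.50, limma adjusted p = 0.0337), and Cxcr2, the receptor for Cxcl1 and Cxcl2 (−2.31 ± 0.43, limma adjusted p = 0.0357), and the first was lost with any N-mDC sample, T-DC 2, T-mDC 2 or T-mDC 3 left out, the second with any N-mDC or any T-mDC sample left out. Cxcr4, the receptor for Cxcl12, was at 151 to 376 FPKM in T-DCs, 176 to 275 FPKM in N-mDCs and 161 to 185 FPKM in T-mDCs, and no comparison of it passed the threshold (limma adjusted p = 0.498 or more).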

How the data were processed

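RNA-seq of 9 samples (3 N-mDC, 3 T-DC and 3 T-mDC) was analysed from the FPKM values per gene that the authors deposited. The build is mm10 per the submitters' processing notes, and the aligner and counter are not given in the sources used here. FPKM multiplied by the deposited gene length gave whole reads for 100% of values (tolerance 0.01 reads).

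The 12746 genes that reached 1 FPKM in 3 or more samples entered 1 linear model of log2(FPKM + 1) over all 3 groups, fitted with limma 3.58.1 in R 4.3.3 with a trend in the empirical Bayes step. Adjusted p-values (Benjamini-Hochberg) under 0.05 were called, and the fit was tested on simulated data beforehand. Neighbour ratios were tested with exact permutation tests in SciPy 1.17.1. Alternatives were other pseudocounts, filters, scalings, weights, covariates and sample sets. All ligands passing the filter are named, as are receptors past the threshold apart from an item that is not reported here, and the gene lists, the ligands and the tests were chosen with earlier results of these data known.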

Additional observations from a re-analysis of the deposited data

How the results depend on the processing

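Across 23 alternatives, T-DCs were called lower than N-mDCs in Ccl5, Ccl22, Cxcl16 and Cxcl9 in each, and lower than T-mDCs in Ccl5, Cxcl16 and Cxcl9 in 22, the exception being the red cell covariate. With a replicate block, the ligands lower in T-DCs than N-mDCs numbered 10 and those lower than T-mDCs 5, those higher than T-mDCs fell from 1 to 0 (Ccl6, limma adjusted p = 0.0608), and the 2 lower in T-mDCs than N-mDCs were then Cxcl2 and Cxcl1 (limma adjusted p = 0.0332), without Ccl24 (limma adjusted p = 0.058). Under this block, calls over all genes fell from 2096 to 1378 for T-DCs against N-mDCs and from 1813 to 1253 for T-DCs against T-mDCs. For T-mDCs against N-mDCs they fell from 282 to 78. Same-numbered samples had correlations of deviations from −0.475 to 0.269, and those of T-DCs with T-mDCs were −0.0714, −0.118 and 0.0224. The labels do not name the mice, so these values cannot show whether same-numbered leukemic samples shared a mouse. The block rests on the shared number only. The 9 ligands lower in T-DCs than N-mDCs became 5 with no filter (29 ligands tested) and 5 with only the groups compared, and 5 to 10 with a sample left out. Calls over all genes in that comparison went from 2096 to 1489 with no filter and to 1070 with only the groups compared. With a sample left out they ranged from 893 to 4968. The 5 lower than T-mDCs became 3 with T-mDC samples 2 and 3 averaged and 0 with the red cell covariate, and 3 to 6 with a sample left out. The 1 higher than T-mDCs became 0 with no filter, TPM, quantile normalization, only the groups compared, the averaged samples or the red cell covariate, and 0 to 2 with a sample left out. All-gene calls of T-DCs against T-mDCs, 1813 in the main fit, were then 1279, 1993, 1804, 1036, 540 and 0 in that order. With a sample left out they ranged from 487 to 4420. The 2 lower in T-mDCs than N-mDCs became 1 with a pseudocount of 0.1, no filter or the red cell covariate, 0 with TPM or the averaged samples, and 0 to 2 with a sample left out. All-gene calls of T-mDCs against N-mDCs, 282 in the main fit, were then 107, 278, 220, 205 and 23 in that order. With a sample left out they ranged from 11 to 1021. The F-test's 9 became 6 with no filter or the averaged samples and 5 to 10 with a sample left out. F-test calls over all genes were not counted under the alternatives, so these changes cannot be set against a share. Array weights, which called 8485, 9923 and 3841 of all genes in the 3 comparisons, gave 3 ligands higher in T-DCs than N-mDCs, 4 higher than T-mDCs, 7 lower and 2 higher in T-mDCs than N-mDCs and 14 by F-test. They turned Cxcl13 in T-DCs against N-mDCs from −0.06 to 0.94 (limma adjusted p = 0.0272). TPM moved the median log2 difference of all genes from 0.07 to −0.23 for T-DCs against T-mDCs and from 0.03 to 0.21 for T-mDCs against N-mDCs. The cause of these changes was not tested. Ccl12, the tested ligand with the fewest reads (53 in all), was called in 1 of 22 alternatives in T-DCs against N-mDCs and in none of the other comparisons.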
